A study of Mus musculus with 70 samples.

Results

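Immediate early response genes are described here through 10 genes chosen by symbol: Fos, Fosb, Jun, Junb, Jund, Atf3, Egr1, Klf6, Nr4a1 and Dusp1. All 10 were found in each of the 3 deposited count tables, which have 23732 gene symbols in common, and all 10 passed the filter on low counts in every comparison. The tables hold RNA-seq read counts per gene from 70 mouse libraries, 32 of total liver and 38 of liver macrophages that had been isolated by sorting as F4/80high CD11blow cells, a phenotype of resident Kupffer cells. Each tissue and sex had all 4 combinations of 2 genotypes and 2 diets. The genotype called WT here carried Lyz2.Cre+/+, which by its name drives Cre recombinase from the Lyz2 locus of myeloid cells. The genotype called KI is labelled OpnKI Mye, by its name an osteopontin knock-in in myeloid cells, and its label lists no Cre allele. Mice of either sex ate a control diet or a NASH diet (NASH is nonalcoholic steatohepatitis) for 24 weeks, and their age is not given in the sources used here. Every group had 4 libraries, apart from the macrophages on the NASH diet, for which each genotype had 5 male and 6 female libraries. Nothing in the labels says that each library came from a separate mouse, so p-values measure the spread between these libraries. The question taken up is how far the level of these genes followed cell sorting on one side and diet and genotype on the other.

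Immediate early genes are the first genes that a cell transcribes after a stimulus, because the factors that switch them on are already present and need no new protein. MAP kinase and cyclic AMP signals reach their promoters through the serum response factor and its partners and through CREB, and most of their mRNAs are destroyed again soon after. Mechanical and enzymatic dissociation of a tissue is known to start this response in cells before they are lysed, and a delay before tissue is frozen can do the same. Fos, FosB, c-Jun, JunB, JunD and ATF3 are leucine zipper proteins of the AP-1 family, which bind DNA as dimers. EGR1 and KLF6 are zinc finger transcription factors, NR4A1 (also called Nur77) is an orphan nuclear receptor, and DUSP1 is a phosphatase that switches MAP kinases off.

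The promoters of 4 members are printed because Fosb and Fos had the largest differences between the tissues and Dusp1 and Nr4a1 the smallest adjusted p for diet in liver, with the letters TGACG (the core of the CREB and ATF recognition sequence TGACGTCA) and TATAAA in capitals on either strand. Each runs 5′ to 3′ on the gene's strand, from 250 bases before to 50 bases after the transcription start of RefSeq on GRCm38.p6. The Fos promoter is chr12:85473640-85473939 on the plus strand, the Fosb promoter chr7:19309996-19310295 on the minus strand, the Nr4a1 promoter chr15:101266596-101266895 on the plus strand and the Dusp1 promoter chr17:26508423-26508722 on the minus strand.
Fos: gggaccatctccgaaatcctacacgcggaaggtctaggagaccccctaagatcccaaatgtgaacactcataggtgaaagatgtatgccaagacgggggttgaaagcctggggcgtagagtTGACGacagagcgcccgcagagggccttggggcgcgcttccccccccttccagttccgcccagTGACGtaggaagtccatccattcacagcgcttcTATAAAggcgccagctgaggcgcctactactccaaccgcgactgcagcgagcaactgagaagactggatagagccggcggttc
Fosb: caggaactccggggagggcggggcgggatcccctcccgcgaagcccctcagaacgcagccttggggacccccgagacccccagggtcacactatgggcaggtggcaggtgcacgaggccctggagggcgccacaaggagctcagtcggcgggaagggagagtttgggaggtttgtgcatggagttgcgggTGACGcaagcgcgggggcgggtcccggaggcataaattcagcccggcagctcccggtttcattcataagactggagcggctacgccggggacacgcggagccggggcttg
Nr4a1: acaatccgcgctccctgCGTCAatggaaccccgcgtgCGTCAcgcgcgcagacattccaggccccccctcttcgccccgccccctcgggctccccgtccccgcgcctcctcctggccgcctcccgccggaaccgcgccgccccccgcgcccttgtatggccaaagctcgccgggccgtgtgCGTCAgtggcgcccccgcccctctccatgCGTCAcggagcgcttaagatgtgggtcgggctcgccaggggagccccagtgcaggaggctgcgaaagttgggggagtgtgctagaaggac
Dusp1: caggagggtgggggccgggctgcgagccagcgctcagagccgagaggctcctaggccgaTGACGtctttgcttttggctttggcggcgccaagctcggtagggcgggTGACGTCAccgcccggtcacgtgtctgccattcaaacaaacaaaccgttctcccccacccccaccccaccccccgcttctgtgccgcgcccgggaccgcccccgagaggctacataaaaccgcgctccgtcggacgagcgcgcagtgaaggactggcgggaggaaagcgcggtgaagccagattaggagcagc

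Promoters were at hand for 9 of the 10 members, all but Egr1, and TGACG occurred on either strand in 6 of them (Fos, Fosb, Junb, Atf3, Nr4a1 and Dusp1), against 20.8% of 32851 mouse promoters of the same length. In Fos it began at positions -129 and -66 from the start, and TATAAA at -33. Fosb held 1 match at -60, and Nr4a1 held 4 on the opposite strand at -233, -213, -69 and -40. Dusp1 alone held the full TGACGTCA, at -143, a sequence found in 1.79% of all promoters and one that contains TGACG on both strands. The AP-1 site TGANTCA was in none of the 9 windows and in 7.81% of all, and the CArG box of the serum response factor in none of the 9 and in 1.63% of all. TATAAA was in Fos and Junb and in 13.6% of all. These are matches of letters in a window.

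Libraries held 11245097 to 29966174 counts in liver and 16512356 to 26244679 in macrophages. Levels are given as CPM, a gene's counts relative to the library total, scaled by the trimmed mean of M values (TMM) within a tissue and sex. In male liver, WT control replicates 3 and 4 differed by less than the sampling noise and were counted as 1 sample (called 3 and 4), so that this group has n = 3. The sex genes Xist and Ddx3y went against the male label in that sample and in macrophage male WT control replicate 4. Lyz2, the gene whose locus carries Cre, split the macrophage libraries into 10 with 42.18 to 167.8 CPM and 28 with 1447 to 3801 CPM. The 10 were 3 of 4 female WT control libraries (all but replicate 2), 3 of 4 female KI control libraries (all but replicate 4), female KI NASH replicates 3 and 4, male WT control replicate 4 and male KI control replicate 3. Spp1, which encodes osteopontin, was at 0 to 0.516 CPM of total counts in WT control macrophages and at 1.43 to 11.3 in KI control macrophages. On the NASH diet the genotypes overlapped, at 5.716 to 55.91 in WT and 43.7 to 198.6 in KI male macrophages. In female macrophages they were at 1.153 to 11.08 and 2.165 to 102.4. In male NASH liver Spp1 was lower in KI (22.16 to 65.76) than in WT (133.4 to 697.9). Female NASH liver had 26.62 to 58.03 in KI and 53.36 to 92.82 in WT. Kupffer cell markers (8 genes, among them Clec4f, Timd4 and Vsig4) summed to 12550 to 36840 CPM in macrophages and 246.5 to 745.2 in liver. Hepatocyte markers (8 genes, among them Alb and Cyp2e1) summed to 24.91 to 3091 CPM in macrophages and 89340 to 193100 in liver. B cell markers summed to 73.98 to 175.1 CPM in macrophages and 2.828 to 16.59 in liver, and neutrophil markers to 124.7 to 534.5 and 6.688 to 51.55. Recruited monocyte markers were lower in macrophages, at 83.36 to 317.6 against 965 to 4738. Sinusoidal endothelial cell markers (550.1 to 3964 against 227.2 to 623.9), stellate cell and T and NK cell markers overlapped between the tissues.

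All 10 genes were far higher in the sorted macrophages than in liver. Together they made up 0.869 to 2.51% of the counts of a macrophage library and 0.0194 to 0.376% of those of a liver library. Averaged over the 4 groups of a sex, macrophages exceeded liver in all 10 members in males, where 44.7% of all genes tested were called higher, and in all 10 in females, where 44.9% were (edgeR quasi-likelihood test, Benjamini-Hochberg adjusted p under 0.05). The median log2 difference of the members was 4.90 in males and 4.17 in females, and that of all genes -0.01 and -0.04. Sorting, cell type and RNA isolation kit change together between these libraries and cannot be told apart, and neither can more cells of a type and more RNA per cell in bulk liver.

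Fosb had the largest difference of the 10. It ranged from 0.161 to 11.6 CPM over the 31 liver samples, with a median of 0.660, and from 724.5 to 5000 CPM over the 38 macrophage libraries, with a median of 2964. The lowest macrophage library was 62.7 times the highest liver sample. On the log2 scale macrophages were higher by 10.88 ± 0.38 (SE; edgeR adjusted p = 1.8e-21) in males and by 9.74 ± 0.48 (adjusted p = 5.8e-19) in females. Several liver values of Fosb rest on fewer than 10 reads, among them 3 reads in female KI NASH replicate 1 and 4 in female WT control replicate 4.

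Fos ran from 1.30 to 366 CPM in liver and from 1232 to 4053 CPM in macrophages, and Atf3, a stress-induced partner and repressor, from 1.17 to 237 and from 314.6 to 1717 CPM. Both differed by about the same amount in either sex: Fos by 6.32 ± 0.54 in males and 6.29 ± 0.51 in females on the log2 scale, Atf3 by 6.00 ± 0.48 and 5.92 ± 0.45. Nr4a1, whose receptor works without a known hormone, followed with 5.65 ± 0.31 and 5.71 ± 0.42, and Klf6, named for its Krüppel-like fingers, with 5.68 ± 0.22 and 4.64 ± 0.17. The other members differed less. Junb, an AP-1 subunit that often opposes c-Jun, was higher by 4.15 ± 0.27 and 3.30 ± 0.26, Dusp1 by 3.88 ± 0.14 and 3.70 ± 0.29, and Jund, the most steadily expressed Jun gene, by 3.18 ± 0.12 and 1.76 ± 0.17. The largest adjusted p among these 7 genes was 1.8e-11 (edgeR, Jund in females).

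Jun and Egr1 were the 2 members whose tissues overlapped. Jun was higher in macrophages by 3.37 ± 0.36 and 3.07 ± 0.37 on the log2 scale and Egr1 by 2.86 ± 0.44 and 2.61 ± 0.37, with edgeR adjusted p of 7.3e-07 or below. Even so, the highest liver sample for both (male WT control 3 and 4) had 758.2 CPM of Jun and 1053 CPM of Egr1. The lowest macrophage libraries had 696.8 CPM of Jun (female KI NASH replicate 3) and 386.6 CPM of Egr1 (female KI control replicate 1). For the other 8 members every macrophage library lay above every liver sample, also on CPM of total counts with no scaling. On that measure 28.2% of the 13482 genes tested in both sexes lay higher in all macrophage libraries than in all liver samples.

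**Figure D1:**
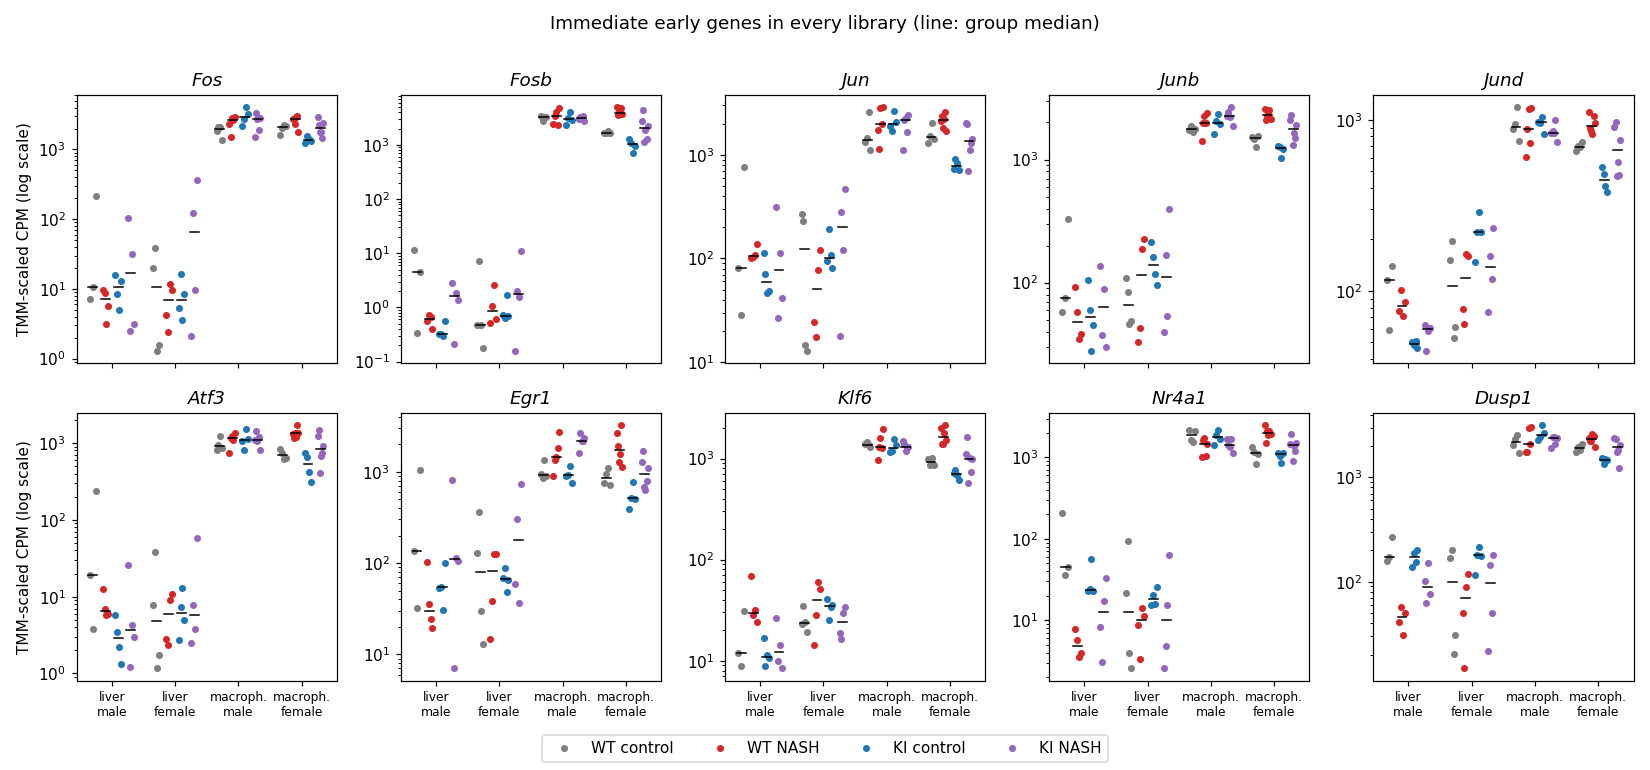
TMM-scaled CPM (log axis) of each gene in every library, by tissue and sex and coloured by genotype and diet, with a line at the group median. Macrophage libraries sit above all liver samples for 8 genes, Jun and Egr1 overlap between tissues, and liver samples of 1 group are spread far apart, Fos from 1.30 to 366 CPM.

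Set per kilobase of annotated exons, the order of the members differed between the tissues. In macrophages Junb stood first with a median of 1064 CPM per kilobase, followed by Fos with 1050, Dusp1 with 882 and Fosb with 783.7, and Egr1 came last with 248.9. In liver Dusp1 stood first with 50.1 CPM per kilobase, followed by Jund with 47.1 and Junb with 41.6, and Fosb came last with 0.174. Of 70 neighbouring pairs of macrophage group means, taken in order over the 10 genes, 5 had ranges that did not overlap, and of 70 pairs of liver group means 1 (Jund, male WT NASH above male KI NASH). Groups were put in order by these same means, so neighbours are the pairs most likely to overlap. The same count was not made over all genes, so it describes the members alone. Female KI control macrophages had the lowest group mean of the 8 macrophage groups for all 10 genes, and female WT NASH macrophages the highest for Fosb, Jun, Junb, Jund, Atf3, Klf6 and Nr4a1. These CPM were scaled within each sex, and members vary together. Lyz2 was low in 3 of the 4 female KI control libraries. How many of all genes had the same lowest or highest group was not counted.

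The genes lie on 9 chromosomes of GRCm38 (mm10): Fos at chr12:85473890-85477273, Fosb at chr7:19302696-19310051, Jun at chr4:95049034-95052222, Junb at chr8:84974484-84978718, Jund at chr8:70698949-70700616, Atf3 at chr1:191170296-191218039, Egr1 at chr18:34859823-34864984, Klf6 at chr13:5861482-5870394, Nr4a1 at chr15:101254269-101274795 and Dusp1 at chr17:26505590-26562128. All are protein-coding genes, and the spans are those of the GENCODE annotation. The RefSeq starts behind the promoters of Atf3, Nr4a1 and Dusp1 lie well inside these spans, and those of Junb and Jund upstream of theirs.

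Liver samples of 1 group differed from each other far more than macrophage libraries of 1 group did. The pooled SD within groups on the log2 CPM scale was 2.06 in liver and 0.338 in macrophages for Fos, 1.80 and 0.455 for Egr1, 1.70 and 0.405 for Atf3, 1.64 and 0.387 for Fosb and 1.58 and 0.423 for Jun. Jund and Klf6 were the steadiest in liver, with 0.559 and 0.632. The same few liver samples were high for most members. In female KI NASH liver, Fos was at 2.09, 121, 9.54 and 366 CPM in replicates 1 to 4, Egr1 at 58.5, 302, 36.2 and 736 CPM and Jun at 18.0, 282, 120 and 472 CPM. Replicate 4 was the highest for all 10 genes of that group and replicate 1 the lowest for 8 of them.

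Female WT control liver had a high and a low pair of samples for 8 of the 10 members, all but Fosb and Klf6, which were high in replicate 2 alone. Fos was at 19.9 and 38.9 CPM in replicates 1 and 2 and at 1.30 and 1.58 CPM in replicates 3 and 4. Dusp1 was at 167 and 203 CPM against 20.5 and 30.5 CPM, and Jun at 270 and 231 CPM against 14.5 and 12.9 CPM. These mice shared genotype, diet and sex by their labels. In male KI NASH liver Egr1 was at 811, 7.02, 115 and 106 CPM in replicates 1 to 4, and in male WT control liver at 134 CPM in replicate 1, 32.5 in replicate 2 and 1053 in 3 and 4. The last of these is the sample whose sex genes went against its label.

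**Figure D2:**
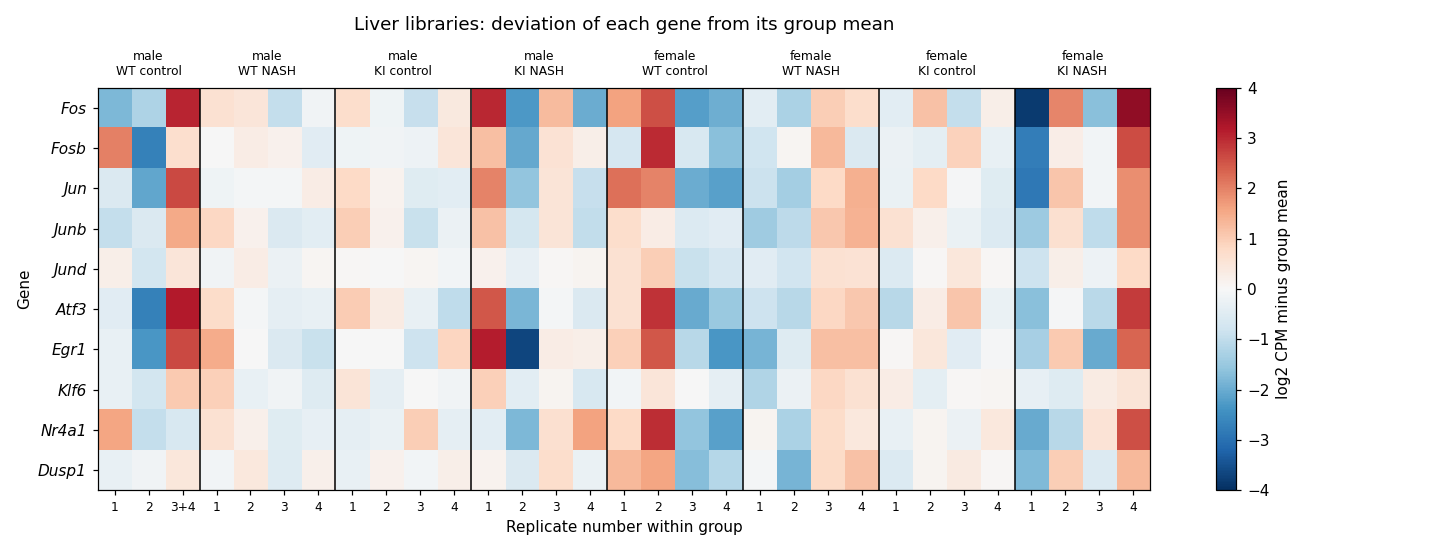
Each liver sample (columns, by group and replicate number) and gene (rows), coloured by its log2 CPM minus the mean of its group. Female KI NASH replicate 4, female WT control replicate 2, male WT control 3 and 4 and male KI NASH replicate 1 are high for most genes, with deviations of Fos of 3.56, 2.57, 3.04 and 3.03, and female KI NASH replicate 1 is low for all 10.

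In male WT liver 4 of the 10 genes, Dusp1, Nr4a1, Fosb and Atf3, fell with the NASH diet and none rose, where 9.74% of all genes tested fell (edgeR, adjusted p under 0.05). The median log2 change of the 10 was -2.66 against -0.01 over all genes, and 9 of the 10 changes were below 0. Without the sample 3 and 4, whose sex genes went against its label, the median was -0.47 and 8 of 10 were below 0, with Jun at 1.04 (adjusted p = 0.33, edgeR). Dusp1 was at 156.1, 173.3 and 267.7 CPM on the control diet and at 40.88, 57.53, 30.82 and 50.02 CPM on the NASH diet. The diets did not overlap for this phosphatase, which fell by 2.15 ± 0.29 on the log2 scale (adjusted p = 0.00063, edgeR). Nr4a1 was at 208.4, 36.0 and 45.37 CPM on the control diet and at 7.81, 5.80, 3.59 and 3.97 CPM on the NASH diet. Its groups did not overlap either, and it fell by 4.19 ± 0.75 (adjusted p = 0.0028, edgeR).

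Fosb and Atf3 overlapped between the diets. Fosb was at 11.55, 0.344 and 4.56 CPM on the control diet, where replicate 2 had 6 reads, and at 0.567, 0.718, 0.660 and 0.393 CPM on the NASH diet, where it fell by 3.21 ± 0.81 (adjusted p = 0.015, edgeR). Without WT control replicate 1 its adjusted p was 0.11. Atf3 was at 18.9, 3.84 and 237 CPM on the control diet and at 12.5, 6.85, 5.78 and 5.97 CPM on the NASH diet, and it fell by 3.48 ± 1.10 (adjusted p = 0.037, edgeR). Without the sample 3 and 4 the change of Atf3 was -0.54 (adjusted p = 0.69), and Klf6, at 1.87 (adjusted p = 0.018), was then called higher. Leaving out any 1 of the 4 WT NASH libraries also ended the call of Atf3. Dusp1 and Nr4a1 kept their calls without any single library. Fos, at 7.22, 10.7 and 213 CPM on the control diet and 9.73, 8.73, 3.18 and 5.66 CPM on the NASH diet, gave -3.50 ± 1.22 (adjusted p = 0.054), and -0.41 without the sample 3 and 4. Summed hepatocyte markers were at 122300 to 193100 CPM on the control diet and 89340 to 96860 CPM on the NASH diet, 4 of 8 being called lower, and Kupffer cell markers at 246.5 to 462.3 and 297.2 to 512.9 CPM, 1 of 8 called lower. Recruited monocyte markers, a list that holds the fibronectin gene Fn1 which hepatocytes also express, summed to 2267 to 2722 CPM on the control diet and 965 to 1540 CPM on the NASH diet, with 3 of 7 called higher and 1 lower. No marker of these lists was at 0 in all libraries, and their part in these changes was not tested.

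In male KI liver no member was called for diet by edgeR, where 0% of all genes were called. At an unadjusted p under 0.05 there were 2, and DESeq2 called 0. The interaction, in which the diet effect in KI is set against that in WT, was called for Fosb alone (5.27 ± 1.15, adjusted p = 0.046, edgeR), where 0.554% of all genes were called higher. Fosb was at 0.321, 0.327, 0.303 and 0.561 CPM in KI control liver, 6 to 10 reads a library, and at 2.87, 0.209, 1.83 and 1.39 CPM in KI NASH liver. Leaving out 1 library ended that call in 12 of 15 cases, with adjusted p up to 0.13; it held without WT control 2, WT control 3 and 4 or KI NASH 2.

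Between genotypes, male liver on the NASH diet had 1 member higher in KI (Dusp1) and 2 lower (Klf6 and Jund), against 19.6% of all genes higher and 17.4% lower. Dusp1 was at 101.7, 61.91, 151.5 and 75.41 CPM in KI, all above the 4 WT values, and higher by 1.12 ± 0.27 (adjusted p = 0.0057, edgeR), a call that held without any single library. Klf6 was at 26.3, 9.90, 14.3 and 8.40 CPM in KI and at 68.3, 28.1, 31.7 and 24.2 CPM in WT. It was lower by 1.37 ± 0.44 (adjusted p = 0.026), and leaving out WT NASH replicate 1 or any of KI NASH replicates 2, 3 and 4 ended the call. Jund was at 63.7, 44.9, 58.6 and 60.5 CPM in KI, below all 4 WT values of 76.3, 101, 71.1 and 86.3 CPM, with a change of -0.56 ± 0.20 (adjusted p = 0.045). That call ended in 11 of 15 cases with 1 library left out and held without any 1 of the 3 WT control samples or WT NASH replicate 3. The shares of members called were of the same size as those over all genes. Stellate cell markers summed to 693.6 to 855.3 CPM in WT and 418.9 to 543.1 CPM in KI, 4 of 8 being called lower, and hepatocyte markers to 89340 to 96860 and 98830 to 141000 CPM, 3 of 8 called higher. Recruited monocyte markers summed to 965 to 1540 CPM in WT and 2555 to 3908 CPM in KI, 1 of 7 (Fn1) called higher and 2 lower, and B cell markers to 6.852 to 11.26 and 2.828 to 4.126 CPM, 2 of 5 tested called lower. The part of these markers in the differences was not tested.

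On the control diet 3 members were lower in KI than in WT male liver and none higher, against 1.92% of all genes lower. Jund was at 50.4, 48.2, 50.9 and 46.1 CPM in KI, below the WT values of 116.5, 58.98 and 139.8 CPM, and lower by 1.10 ± 0.22 on the log2 scale (adjusted p = 0.019, edgeR). Fosb (-3.83 ± 0.86, adjusted p = 0.028) and Atf3 (-4.74 ± 1.18, adjusted p = 0.039) overlapped between the genotypes, since WT control replicate 2 had 0.344 and 3.84 CPM. Leaving out WT control replicate 1 ended all 3 calls, any 1 of the 4 KI control libraries those of Fosb and Atf3, KI control replicate 4 that of Jund, and WT NASH or KI NASH replicate 3 that of Atf3, and leaving out the sample 3 and 4 brought Atf3 to -1.80 (adjusted p = 0.26). The comparisons of diet in WT and of genotype on the control diet share the same 3 WT control samples.

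In female liver no member was called in any of the 5 comparisons by edgeR. The share of all genes called was 0.0526% for diet in WT, 8.83% for diet in KI, 0.0901% for KI against WT on the NASH diet, 7.57% on the control diet and 4.77% for the interaction. At an unadjusted p under 0.05 there were 0, 1, 1, 0 and 2 members in that order, and DESeq2 called Fos in 3 of the 5. Fos was at 5.34, 16.4, 3.63 and 8.50 CPM in KI control liver, within the wide range of the KI NASH group. The change with diet in KI was 3.88 ± 1.28 (adjusted p = 0.071) and the genotype difference on the NASH diet 4.16 ± 1.30 (adjusted p = 0.23). The female minus male difference was called for no member by edgeR, either for diet in WT (1.68% of all genes called; 1 member at an unadjusted p under 0.05, DESeq2 0) or for genotype on the NASH diet (14% called; 0 and 0).

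**Figure D3:**
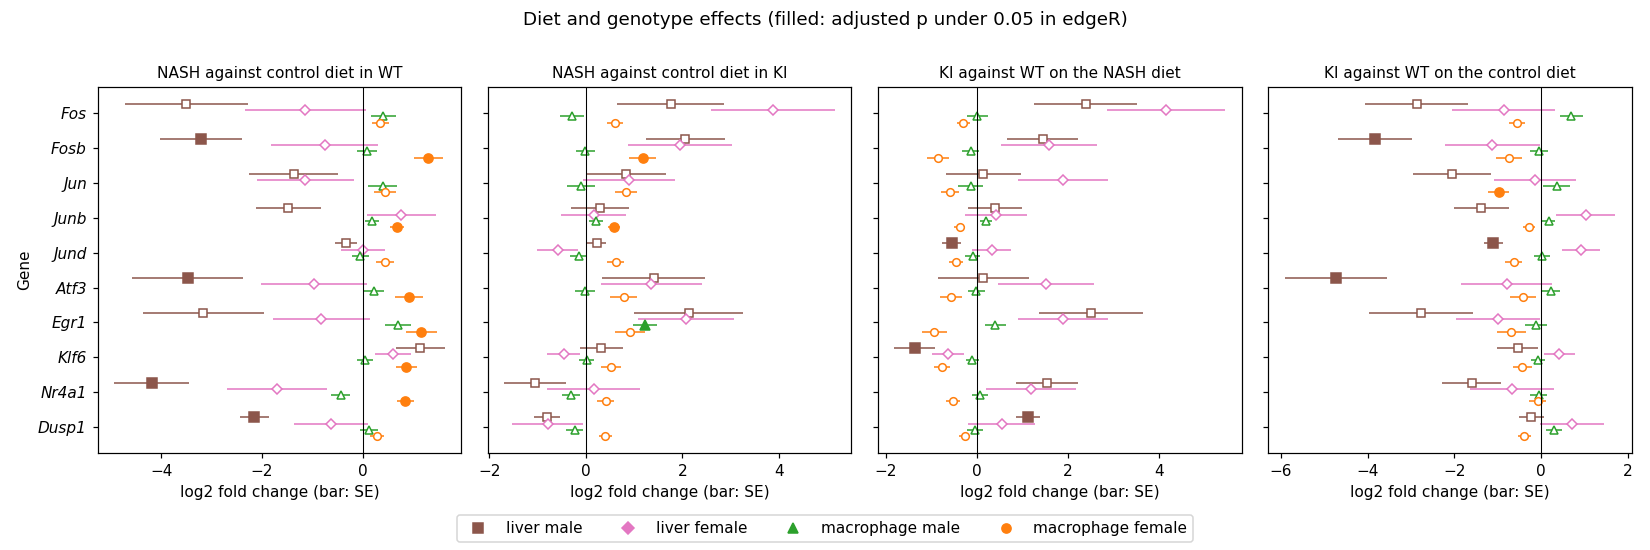
Log2 fold changes with SE from edgeR for diet in WT, diet in KI and genotype on either diet (panels), by tissue and sex; filled symbols have an adjusted p under 0.05. Male WT liver falls with the diet in Nr4a1 (-4.19), Fosb (-3.21) and 2 others, female WT macrophages rise in 6 genes by 0.68 to 1.30, and the bars of liver are several times longer than those of macrophages.

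In female WT macrophages 6 of the 10 genes rose with the NASH diet and none fell, where 8.44% of all genes rose (edgeR, adjusted p under 0.05). They were Fosb, Egr1, Atf3, Klf6, Nr4a1 and Junb, and all 10 changes were above 0, with a median of 0.77 against -0.01 over all genes. Fosb was at 1636, 1640, 1783 and 1669 CPM on the control diet and at 3505 to 5000 CPM (median 3925) in the 6 NASH libraries. The diets did not overlap, and Fosb rose by 1.30 ± 0.28 on the log2 scale (adjusted p = 0.0087, edgeR). Junb was at 1519, 1462, 1261 and 1557 CPM on the control diet and at 2098 to 2578 CPM (median 2294) on the NASH diet, a rise of 0.68 ± 0.13 (adjusted p = 0.0042). Again no NASH library came as low as the highest control.

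Nr4a1 was at 1327, 1167, 836.8 and 1093 CPM on the control diet and at 1499 to 2497 CPM (median 2000) on the NASH diet, a rise of 0.85 ± 0.18 (adjusted p = 0.0071, edgeR). Klf6 was at 995.4, 871.6, 1023 and 868.7 CPM and then at 1395 to 2146 CPM (median 1647), a rise of 0.86 ± 0.21 (adjusted p = 0.014). Neither overlapped between the diets. Egr1 was at 748.3, 945.6, 1095 and 722.1 CPM and then at 1128 to 3250 CPM (median 1749), a rise of 1.17 ± 0.32 (adjusted p = 0.024). Atf3 was at 837.3, 744.2, 618.6 and 640.1 CPM and then at 1156 to 1717 CPM (median 1332), a rise of 0.92 ± 0.28 (adjusted p = 0.038). The spread of Egr1 within the NASH group was wide, although its lowest library was above all 4 controls.

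Of the 4 members not called there, Jund (0.44 ± 0.18, adjusted p = 0.11) did not overlap between the diets, and Jun (0.44 ± 0.22), Fos (0.35 ± 0.17) and Dusp1 (0.28 ± 0.14) did. Fosb, Junb, Klf6 and Nr4a1 kept their calls without any single library. Egr1 lost its call without control replicate 1, 2 or 4 (adjusted p up to 0.07), and Atf3 without any 1 of the 4 controls or NASH replicate 1, 3, 5 or 6 (up to 0.1). Lyz2 was low in WT control replicates 1, 3 and 4 and high in all 6 NASH libraries. The 1 control library with high Lyz2, replicate 2, had 1640 CPM of Fosb, 1462 of Junb, 1167 of Nr4a1 and 945.6 of Egr1, within or beside the range of the other 3. With the low-Lyz2 libraries left out, which leaves that 1 control assumed to vary like the other groups, the changes were 1.33 for Fosb, 0.66 for Junb, 0.77 for Nr4a1, 0.97 for Klf6, 1.05 for Egr1 and 0.85 for Atf3, and none was called (adjusted p 0.25 to 0.49, with 10 genes called in all). Kupffer cell markers summed to 31970 to 36840 CPM on the control diet and 25360 to 33720 CPM on the NASH diet, 2 of 8 called lower, and hepatocyte markers to 122.8 to 361.4 and 239.3 to 1913 CPM, 6 of 8 called higher. Stellate cell markers summed to 247.8 to 439.8 and 154.7 to 237.2 CPM, without overlap, 1 of 8 called lower. None of these 3 lists had a marker at 0 in all libraries, and their part in the result was not tested.

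In female KI macrophages 2 members rose with the diet, Junb (0.58 ± 0.13, adjusted p = 0.032) and Fosb (1.18 ± 0.28, adjusted p = 0.038, edgeR), where 1.79% of all genes rose. All 10 changes were above 0 and all 10 had an unadjusted p under 0.05. Junb was at 1277, 1254, 1020 and 1222 CPM on the control diet and at 1302 to 2285 CPM (median 1767) on the NASH diet, and its groups did not overlap. Fosb was at 1287, 1093, 724.5 and 951.7 CPM and then at 1136 to 4431 CPM (median 2063), and its groups overlapped. Leaving out any 1 of the 4 controls or NASH replicate 2 ended both calls, and leaving out NASH replicate 6 or WT control replicate 2 that of Fosb. Without the low-Lyz2 libraries no member was called (Fosb 1.5, adjusted p = 0.33; Junb 0.67, adjusted p = 0.3). Hepatocyte markers summed to 24.91 to 70.55 CPM on the control diet and 59.06 to 679.2 CPM on the NASH diet, 5 of 8 called higher, and stellate cell markers to 135.5 to 159.1 and 141.9 to 262.3 CPM, 4 of 8 called higher; their part in the result was not tested.

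Genotype differences among female macrophages mostly did not pass the threshold. On the control diet Jun was lower in KI, at 726.4, 906.2, 842.1 and 717.8 CPM against 1297, 1529, 2044 and 1424 CPM in WT, with no overlap and a change of -0.98 ± 0.24 (adjusted p = 0.027, edgeR), where 1.91% of all genes were lower. Leaving out WT control replicate 2 or 3 or KI control replicate 1 or 2 ended this call, as did leaving out the low-Lyz2 libraries. Stellate cell markers were at 247.8 to 439.8 CPM in WT and 135.5 to 159.1 CPM in KI on that diet, 6 of 8 called lower, and hepatocyte markers at 122.8 to 361.4 and 24.91 to 70.55 CPM, 2 of 8 called lower. Kupffer cell markers were at 31970 to 36840 and 27060 to 28870 CPM, 1 of 8 called lower, and T and NK cell markers at 0.386 to 1.33 and 3.369 to 6.996 CPM, 1 of 8 called higher, with 1 of these at 0 in all WT control libraries. None of the 4 lists overlapped between the genotypes, and their part in the difference was not tested. Fos, Fosb, Jund, Klf6 and Dusp1 also had all 4 KI values below all 4 WT values without passing the threshold. How many of all genes separated in this way was not counted, so this is a description of the members alone. On the NASH diet no member was called by edgeR (0.561% of all genes called), although 9 had an unadjusted p under 0.05, all 10 changes were below 0, and DESeq2 called 5 lower. The interaction was called for none (0.288% of all genes; 0 at an unadjusted p under 0.05; DESeq2 0).

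In male macrophages Egr1 was the single member called in any comparison. In KI it was at 905.6, 919.3, 1159 and 755.5 CPM on the control diet and at 1611, 2653, 2162, 2162 and 2341 CPM on the NASH diet. The diets did not overlap, and Egr1 rose by 1.23 ± 0.25 (adjusted p = 0.003, edgeR), a call that held without any single library and without the low-Lyz2 libraries (1.33, adjusted p = 0.011). In the same comparison 15.1% of all genes rose, so that 1 of 10 members is near the share over all genes. Kupffer cell markers summed to 30480 to 34780 CPM on the control diet and 12550 to 30030 CPM on the NASH diet (5 of 8 called lower), and recruited monocyte, hepatocyte and T and NK cell markers were called higher in 6 of 7, 8 of 8 and 7 of 8. The sums were 83.36 to 198.9 and 105 to 297 CPM for recruited monocytes, 185.1 to 280.7 and 523.2 to 3091 CPM for hepatocytes, and 0.745 to 1.07 and 3.61 to 26.7 CPM for T and NK cells, where 1 marker was at 0 in all control libraries; their part in the change of Egr1 was not tested.

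Diet in male WT macrophages called no member by edgeR (8.19% of all genes called; 2 members at an unadjusted p under 0.05; DESeq2 1, Egr1). Egr1 was at 954.1, 848.4, 1356 and 905.8 CPM on the control diet and at 906.5, 1331, 1455, 1842 and 2721 CPM on the NASH diet, a change of 0.70 ± 0.25 (adjusted p = 0.09). Fosb, which rose in females, was at 3380, 2798, 3294 and 3332 CPM and then at 2404, 3474, 3982, 2312 and 4784 CPM in males, a change of 0.08 ± 0.20 (adjusted p = 0.83). Genotype called no member on the NASH diet (3.13% of all genes; 0 at an unadjusted p under 0.05; DESeq2 0) or on the control diet (0%; 1; DESeq2 0), nor did the interaction (0%; 0; DESeq2 0).

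The difference between the sexes was tested directly in macrophages. For diet in WT no member was called by edgeR (0.0224% of all genes called), with 4 at an unadjusted p under 0.05. The female change was larger than the male by 1.27 ± 0.26 for Nr4a1 (adjusted p = 0.061) and by 1.20 ± 0.36 for Fosb (adjusted p = 0.1), both of which DESeq2 called. For genotype on the NASH diet Egr1 was called, with a female minus male difference of -1.32 ± 0.38 (adjusted p = 0.039, edgeR), where 3.96% of all genes were called lower. Egr1 on that diet was at 1128 to 3250 CPM (median 1749) in WT and 638.5 to 1677 CPM (median 946.6) in KI females. In males it was at 906.5 to 2721 CPM in WT and 1611 to 2653 CPM in KI. The call ended in 12 of 38 cases with 1 library left out: male WT NASH 1 to 3, male KI NASH 2 to 4, female WT NASH 1 and 5 and female KI NASH 3 to 6 (adjusted p up to 0.099). Without the low-Lyz2 libraries the difference was -1.08 (adjusted p = 0.24). All 8 hepatocyte markers were called lower in the same comparison; on the NASH diet they summed to 239.3 to 1913 CPM in WT and 59.06 to 679.2 CPM in KI females, and to 73.49 to 351.1 and 523.2 to 3091 CPM in males. Their part in the result was not tested.

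Within groups most members varied together in both tissues. Each library's log2 CPM was taken as a deviation from its group mean, and the 45 pairs of genes were compared by Pearson's r over 31 liver samples and 38 macrophage libraries. These values are descriptions; members of a pair share a library, its depth and its handling. In liver the median r was 0.696 (0.278 to 0.905), with 38 of 45 pairs above 0.5. The highest pairs were Fos with Jun (0.905), Jund with Dusp1 (0.891) and Jun with Atf3 (0.883). Without the 2 samples farthest in Fos, Fos with Jun gave 0.885. The lowest were Klf6 with Nr4a1 (0.278) and Junb with Nr4a1 (0.283).

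In macrophages the median was 0.605 (-0.0406 to 0.849), with 33 of 45 pairs above 0.5. Fosb went with Klf6 (0.849), Junb (0.842), Jund (0.831) and Nr4a1 (0.775). Fos went with Dusp1 (0.796) and Jun (0.793), but hardly with Nr4a1 (-0.0406), and Jun hardly with Nr4a1 (0.0532). The same 2 pairs were as low in the 15 male liver samples, with -0.159 for Fos and -0.0372 for Jun, and high in the 16 female liver samples, with 0.786 and 0.811. Fosb with Fos gave 0.372, although both encode Fos family partners of the Jun proteins. The 6 genes that rose in female WT macrophages do not include Fos, Jun or Dusp1, nor Jund, which went with Fosb. They do include Egr1, which had higher r with Jun (0.687) and Fos (0.595) than with Fosb (0.528) or Nr4a1 (0.218).

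**Figure D4:**
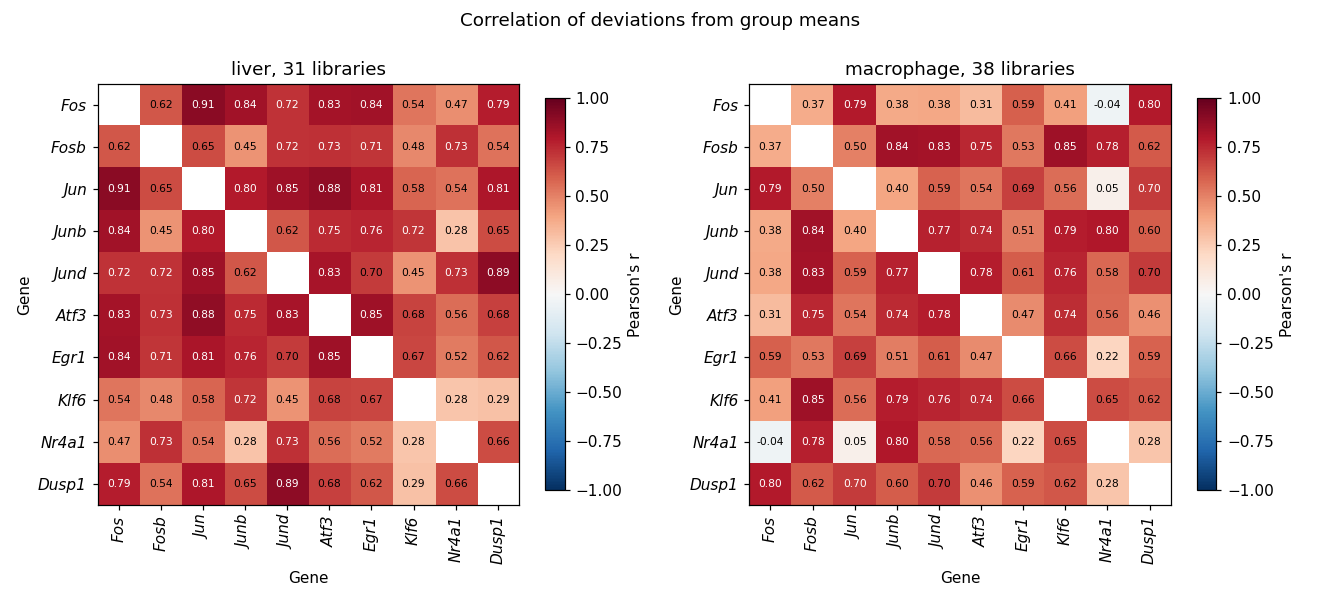
Pearson's r between genes of the deviations from group means, over 31 liver samples (left) and 38 macrophage libraries (right). Most liver pairs are high over both sexes together (median 0.696), and in macrophages Fos, Jun and Dusp1 show low values with Nr4a1 (-0.0406, 0.0532 and 0.277). Male liver alone has similarly low values with Nr4a1.

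Other genes followed the mean deviation of the 10 members closely. In liver, among 13405 genes compared over 31 samples, Btg2, an antiproliferative early response gene, came first (r = 0.948), then the cytoplasmic actin gene Actg1 (0.881), the immediate early gene Ier2 (0.867), the small GTPase gene Rhob (0.857) and Zfp36 (0.853), whose product tristetraprolin degrades AU-rich mRNAs. Btg2 spanned 10.4 to 391 CPM over these samples and Ier2 14.2 to 372 CPM. In macrophages, among 13363 genes over 38 libraries, Zfp36 came first (0.890), then the immediate early gene Ier5 (0.848), the stress phosphatase subunit gene Ppp1r15a (0.824) and Id3 (0.817). Zfp36 is the 1 gene among the first 5 of both tissues.

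A wider list of 43 other immediate early and early response genes was read in the same comparisons. In sorted macrophages against liver 36 of 43 were higher and 2 lower in males, and 32 higher and 4 lower in females, beside the 44.7% and 44.9% of all genes. Their summed level was 1173 to 5280 CPM in liver and 9721 to 25260 CPM in macrophages. With the diet in female WT macrophages 25 of 42 tested rose and none fell (median 0.70), where 8.44% of all genes rose. Among them were Nr4a2, a sister receptor of Nr4a1 (2.58 ± 0.32, adjusted p = 0.00023), the AP-1 subunit gene Fosl2 (1.49 ± 0.25, adjusted p = 0.0017), Egr2 (1.31 ± 0.22, adjusted p = 0.0016) and the kinase gene Plk3 (0.73 ± 0.09, adjusted p = 0.00027, edgeR). The list was not refitted without the low-Lyz2 libraries, which include most female WT control libraries and no female WT NASH library. In female KI macrophages 3 rose (Arc, Plk2 and Btg2) and none fell, where 1.79% of all genes rose. In male macrophages none of 43 was called for the diet in WT, where 8.19% of all genes were called. In KI 13 rose and 4 fell, where 15.1% of all genes rose. Among them were the stress gene Gadd45a (1.39) and the NF-kappaB inhibitor gene Nfkbia (1.13) upward and Rhob (-0.78) downward. On the NASH diet, female KI macrophages had 4 of these genes lower than WT and none higher, where 0.561% of all genes were called. They were Ppp1r15a (-0.98), Nfkbia (-1.31), Ier2 (-0.91) and Nfkbiz (-1.57).

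In male WT liver 10 of 39 tested fell and 3 rose with the diet, where 9.74% of all genes fell. Among the falls were Ppp1r15a (-1.33), the clock regulator gene Bhlhe40 (-1.74), the salt-inducible kinase gene Sik1 (-2.25) and Csrnp1 (-1.59), each called lower by edgeR. The list summed to 1855 to 5280 CPM on the control diet and 1236 to 1579 CPM on the NASH diet. It was not refitted without the sample 3 and 4, whose sex genes went against its label. In male KI liver none was called, where 0% of all genes were. In female liver none of 41 was called for the diet in WT, where 0.0526% of all genes were called. KI against WT on the control diet had 4 higher and none lower, Gadd45b (3.45), Mafk (0.61), Maff (1.85) and Cebpd (1.80). In that comparison 7.57% of all genes were called in either direction, which is near the share of this list.

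Feedback genes of the MAP kinases, a list of 15 phosphatase, Sprouty and Spred genes besides Dusp1, were read beside it. In macrophages against liver 9 of 15 were higher and 3 lower in males, and 7 higher and 5 lower in females, beside the 44.7% and 44.9% of all genes called higher. Dusp2, a phosphatase of immune cells, was higher by 7.68 and 6.12 on the log2 scale, and Spred1, an inhibitor of the Ras pathway, by 2.02 and 1.72. In female WT macrophages 4 of 14 tested rose with the diet, where 8.44% of all genes rose. Among the 4 were Dusp5 (1.77), Dusp2 (1.46) and Dusp4 (1.24), and Dusp7 (-1.04) fell. In male KI macrophages 5 rose and 1 fell, where 15.1% of all genes rose. Dusp4 (1.89), Dusp2 (1.90), Dusp5 (2.60) and the Sprouty gene Spry2 (1.80) had the smallest p-values. In male WT macrophages 3 rose and 2 fell, where 8.19% of all genes were called in either direction. Dusp1 itself was called in none of these 3 comparisons.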

How the data were processed

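RNA of mouse liver (isolated with illustra RNAspin) and of sorted liver macrophages (Qiagen miRNeasy micro) was sequenced with a stranded mRNA kit, per the labels' protocols. The authors deposited 3 tables of raw read counts per gene symbol, on the mm10 build per the submitters' processing notes; which aligner, counter, annotation and strand option were used is not given in the sources used here. All 70 libraries were mapped to groups by title, and 0 columns belonged to no sample.

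Counts were tested as deposited with edgeR 4.0.16 (R 4.3.3): TMM factors, filterByExpr with a minimum count of 10 and a minimum total of 15, glmQLFit and glmQLFTest on the groups of 1 tissue and sex together (both sexes or both tissues where those were compared), and Benjamini-Hochberg adjustment over all genes tested in each of 26 comparisons. Deviations were log2 of CPM plus 0.1 minus the group mean. Male liver WT control replicates 3 and 4 had a mean chi-square over genes of 0.0671, against 2.05 to 11.9 in 121 other pairs, and were averaged. Alternatives were RLE size factors, no count filter, a replicate block, DESeq2 1.42.0, the merged pair kept separate, no libraries whose sex genes went against the label, each library left out and, chosen after seeing the data, no libraries of low Lyz2. Figures were drawn with matplotlib 3.10.9.

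On simulated data for male liver WT diet, 52% of changes of 1 and 87% of changes of 2 on the log2 scale were recovered (100 genes each of 12813). The changed genes were drawn at random and kept their own spread. The rates are therefore not those of the members, whose SD within liver groups reached 2.06 for Fos. The members, the lists and their rules were chosen with earlier results of these data known. Named were all members, from each list at most 4 called genes with the smallest p, and in each tissue the 5 other genes whose deviations had the highest r with the mean standardised deviation of the members. Of these, 1 gene that this rule names in macrophages is not reported here.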

Additional observations from a re-analysis of the deposited data

Results flagged for a closer look

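Of 150 groups and genes examined for a library far from the others, 4 stood out, and chance gives about 1 in 20. Fosb in male KI control liver was at 0.5605 CPM in replicate 4 and at 0.3032 to 0.3274 CPM in the other 3 libraries, all of 6 to 10 reads. Nr4a1 in male KI control liver was at 57.26 CPM in replicate 3 and at 22.65 to 24.37 CPM in the others. Fosb in female KI control liver was at 1.69 CPM in replicate 3 and at 0.6263 to 0.7236 CPM in the others. Fosb in male WT control macrophages was lowest in replicate 2, at 2798 CPM, against 3294 to 3380 CPM.

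Differences between groups that passed the test of the difference itself (edgeR quasi-likelihood test, adjusted p) were found for 2 members. The log2 diet effect on Fosb in male liver was -3.21 in WT (edgeR adjusted p = 0.015) and 2.06 in KI (adjusted p = 0.66, not called). Their difference, KI minus WT, was 5.27 (adjusted p = 0.046). The genotype effect on Egr1 on the NASH diet in macrophages was lower in females than in males by a difference of -1.32 (adjusted p = 0.039). Both calls were lost when certain single libraries were left out, as given above.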

How the results depend on the processing

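No member's call changed sign under any alternative run, and sign changes of members called under neither setting were not counted. RLE size factors and no count filter left every count of called members within 1.5 times the one reported. Counts moved under the following settings. With the merged pair kept separate, 7 members were called lower in male WT liver with the diet. DESeq2 called 5 in the male liver interaction, 1 (Fos) in female liver for diet in KI, for genotype on the NASH diet and for the interaction, 1 (Egr1) for diet in male WT macrophages, 7 for diet in female KI macrophages, 5 and 3 lower for genotype in female macrophages on the NASH and control diets, and 2 in each macrophage difference between the sexes. Without the libraries of low Lyz2, 0 were called in female macrophages for diet in WT, diet in KI and genotype on the control diet, and 0 in the sex difference of the genotype effect; these fits hold fewer libraries. Without libraries whose sex genes went against the label, Atf3 lost its call for diet in male WT liver (-0.54) and for genotype on the control diet (-1.80), and Klf6 (1.87) and, for genotype on the NASH diet, Fos (2.39) gained one. Otherwise the cause was not tested.

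With a replicate block, 1 member (Jund) was called for genotype in male control liver, 0 in the male liver interaction, 0 for diet in female KI macrophages and 2 in the sex difference of the genotype effect in macrophages. Median correlations of deviations between same-numbered samples were 0.0391 and 0.00217 in male and female liver and 0.047 and -0.0374 in male and female macrophages. The highest were 0.232, 0.129, 0.556 and 0.516 in that order. A low median does not exclude pairing or a shared batch, and same-numbered liver and macrophage libraries were not compared.

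Leaving out 1 library at a time gave these lowest and highest counts of called members. In male liver they were 3 and 6 for diet in WT, 0 and 0 for diet in KI, 1 and 4 for genotype on the NASH diet, 0 and 3 on the control diet, and 0 and 1 for the interaction. In female liver they were 0 and 1 for diet in KI and for the interaction and 0 in the rest. In male macrophages they were 0 and 1 for diet in WT, 1 and 1 for diet in KI and 0 in the rest. In female macrophages they were 4 and 6 for diet in WT, 0 and 7 for diet in KI, 0 and 7 for genotype on the NASH diet, 0 and 3 on the control diet and 0 for the interaction. Sex differences gave 0 in liver and, in macrophages, 0 and 1 for diet in WT and 0 and 4 for genotype. Macrophages against liver gave 10 throughout. Liver values of Fosb, at a median of 0.660 CPM, are limited by depth.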

Other observations

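Heat shock genes, another group known to respond to tissue handling, were read as a list of 14. In macrophages against liver 6 were higher and 4 lower in males and 8 higher and 3 lower in females (edgeR, adjusted p under 0.05), beside 44.7% and 44.9% of all genes called higher. The inducible chaperone gene Hspa1a was higher by 8.23 in males and 8.85 in females on the log2 scale, while the mitochondrial chaperonin genes Hspd1 (-2.32 and -2.42) and Hspe1 (-2.60 and -1.28) were lower. Within macrophages none of the 14 was called by edgeR in any comparison of diet or genotype (0 to 4 had an unadjusted p under 0.05). In female WT macrophages they summed to 4319 to 6809 CPM on the control diet and 5649 to 7690 CPM on the NASH diet. The part of handling in the levels of either set of genes was not tested. In male liver Hsp90aa1, a cytoplasmic chaperone gene, was higher in KI than in WT on the NASH diet (0.72) and on the control diet (1.31), as was its partner Hsph1 (0.87 and 1.06). On the NASH diet 19.6% of all genes were called higher in KI, so these genes are given singly and not as a result about the list.

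The kinases and factors that act before the immediate early genes, a list of 22 MAP kinases, SRF partners and CREB factors, were read the same way. In macrophages against liver 11 were higher and 8 lower in males, with a median of 0.17, and 11 higher and 10 lower in females, with a median of 0.20, shares near those over all genes. Among the higher were the SRF coactivator gene Mkl1 (2.56 and 2.63), Creb1 (1.36 and 1.24) and the kinase gene Rps6ka1 (1.80 and 2.18). In male WT liver 6 of 22 fell with the diet, where 9.74% of all genes fell, and 2 rose. The share of all genes that rose is not given here. The falls included the SRF partner genes Elk1 (-0.59) and Elk4 (-0.68). This list was not refitted without the WT control sample whose sex genes went against its label.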
